A study of Mus musculus with 4 samples.

Results

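The 10 genes described here encode enzymes that make nicotinamide adenine dinucleotide (NAD), recycle it, or handle its precursors and reduced forms. They are Qprt, Nampt, Nmnat1, Nmnat3, Nmrk1, Nmrk2, Naprt, Nadsyn1, Nnmt and Nnt, of 27591 genes on the array. They were measured by 16 of 41174 non-control probes. Probes were taken where the array's gene name was a member or an older alias (Itgb1bp3 for Nmrk2, Pbef1 for Nampt, Naprt1 for Naprt), and the Nmrk1 probe, listed under a clone name, was matched through its RefSeq accession. The genes were chosen by pathway, with the differences of Qprt and Nmrk2 on these same arrays already known, so the values below are a description and carry no test.

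Messenger RNA of skeletal muscle was measured on 1-colour Agilent arrays in mice of 10 weeks of age with free access to food. The 4 genotypes were ob/ob TBP-2-/-, TBP-2-/-, ob/ob and WT, with 1 array each. TBP-2 is another name for Txnip, the thioredoxin-interacting protein, which limits the entry of glucose into cells. The ob mutation removes functional leptin, the satiety hormone of fat tissue, and homozygotes are obese. All groups share tissue, age and feeding. The labels give no strain, sex or muscle, do not say which part of Txnip is deleted, and do not say how many mice each RNA represents.

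NAD carries electrons in glycolysis, in the mitochondria and in fat oxidation, and it is consumed by sirtuins and by ADP-ribosyltransferases. Cells make it by several routes. The de novo route starts from tryptophan, passes through kynurenine and quinolinate, and enters the mononucleotide pool through Qprt. The nicotinamide route recycles the nicotinamide released by NAD users through Nampt, the nicotinate route uses Naprt, and the riboside route phosphorylates nicotinamide riboside through the kinases Nmrk1 and Nmrk2. All routes end in an adenylyl transfer by Nmnat enzymes, after which Nadsyn1 amidates the product of the de novo and nicotinate routes. Nampt is known as the main supply in skeletal muscle, and Nmrk2 as the kinase form largely restricted to muscle and heart.

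The deposited files hold no probe sequences, so the sequence shown for the genes with the largest differences is that of the promoter. These are the 250 bases before the annotated start, from RefSeq's GRCm38.p6 assembly on the minus strand, at chr10:81202038-81202287 for Nmrk2 and chr7:127122030-127122279 for Qprt. Capitals mark matches to any of the 4 motifs spelled out after them, searched on both strands.
Nmrk2: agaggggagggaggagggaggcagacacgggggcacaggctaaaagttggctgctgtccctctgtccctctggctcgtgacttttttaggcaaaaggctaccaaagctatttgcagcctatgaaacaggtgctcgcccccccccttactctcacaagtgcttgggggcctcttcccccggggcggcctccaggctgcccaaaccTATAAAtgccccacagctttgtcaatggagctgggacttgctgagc
Qprt: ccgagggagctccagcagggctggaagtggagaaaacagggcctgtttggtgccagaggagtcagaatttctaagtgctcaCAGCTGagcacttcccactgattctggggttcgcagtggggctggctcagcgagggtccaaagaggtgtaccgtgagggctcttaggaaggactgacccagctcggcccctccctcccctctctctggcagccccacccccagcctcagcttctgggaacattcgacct

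The Nmrk2 window held TATAAA, the letters of a TATA box, beginning 46 bases before the start, as did 12.4% of 32851 promoters of this length at any place in the window. The Qprt window held CAGCTG, an E-box of the kind bound by myogenic factors, beginning 169 bases before its start, as did 13.0% of promoters. The window of Nampt, a gene with level signals, held CAGCTG too, beginning 105 bases before its start. CACGTG, the E-box bound by the glucose-sensing partners of Mlx, was found in 6.02% of promoters and in none of the 7 members with a promoter in the table. AGGTCA, a nuclear receptor half-site, was found in 14.02% of promoters and, among these 7 members, in Nampt alone. The annotated Nmrk2 gene extends upstream of this start, to base 81202265 of chromosome 10. A match describes letters in the window and not a bound site.

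The arrays had between 22674 and 24220 probes well above background, lay on 1 slide and came from 1 scan, and no spot was saturated. Probes printed 10 times on an array had median standard deviations between 0.0596 and 0.0691 on the log2 scale. Txnip had signals of 166 on the ob/ob TBP-2-/- array and 868 on the TBP-2-/- array, against 13142 in ob/ob and 13209 in WT muscle. Muscle-defining genes (8 of 8, among them Ckm and Acta1) were well above background on every array, with mean log2 levels between 9.86 and 10.06. Signals below are processed signals in scanner units. Levels and differences are log2 values after division by each array's 75th percentile. The error of a difference is a standard error (SE) from the scanner software's error model, which leaves out the variation among mice. For bright members such as Nmrk2, Nampt and Nnt it was 0.20 in every comparison. It thus comes mainly from a constant of that model and is not a spread measured between spots. A gene with several probes is given by its brightest probe. No difference has a replicate check, and "higher" and "lower" describe these arrays.

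Each of the 10 genes was detected well above background in all genotypes, so the filter on dim probes removed none of them. The genes ranged by degrees from hardly any difference to a large one. Across the 4 arrays the levels of Nadsyn1 and Nampt spanned 1.06-fold and 1.08-fold, those of Naprt, Nmrk1, Nmnat1 and Nmnat3 between 1.35-fold and 1.68-fold, Nnmt 2.27-fold, Nnt 3.68-fold, Qprt 14.4-fold and Nmrk2 37.9-fold. The median span over the 14906 genes well above background on all arrays was 1.35-fold.

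**Figure D1:**
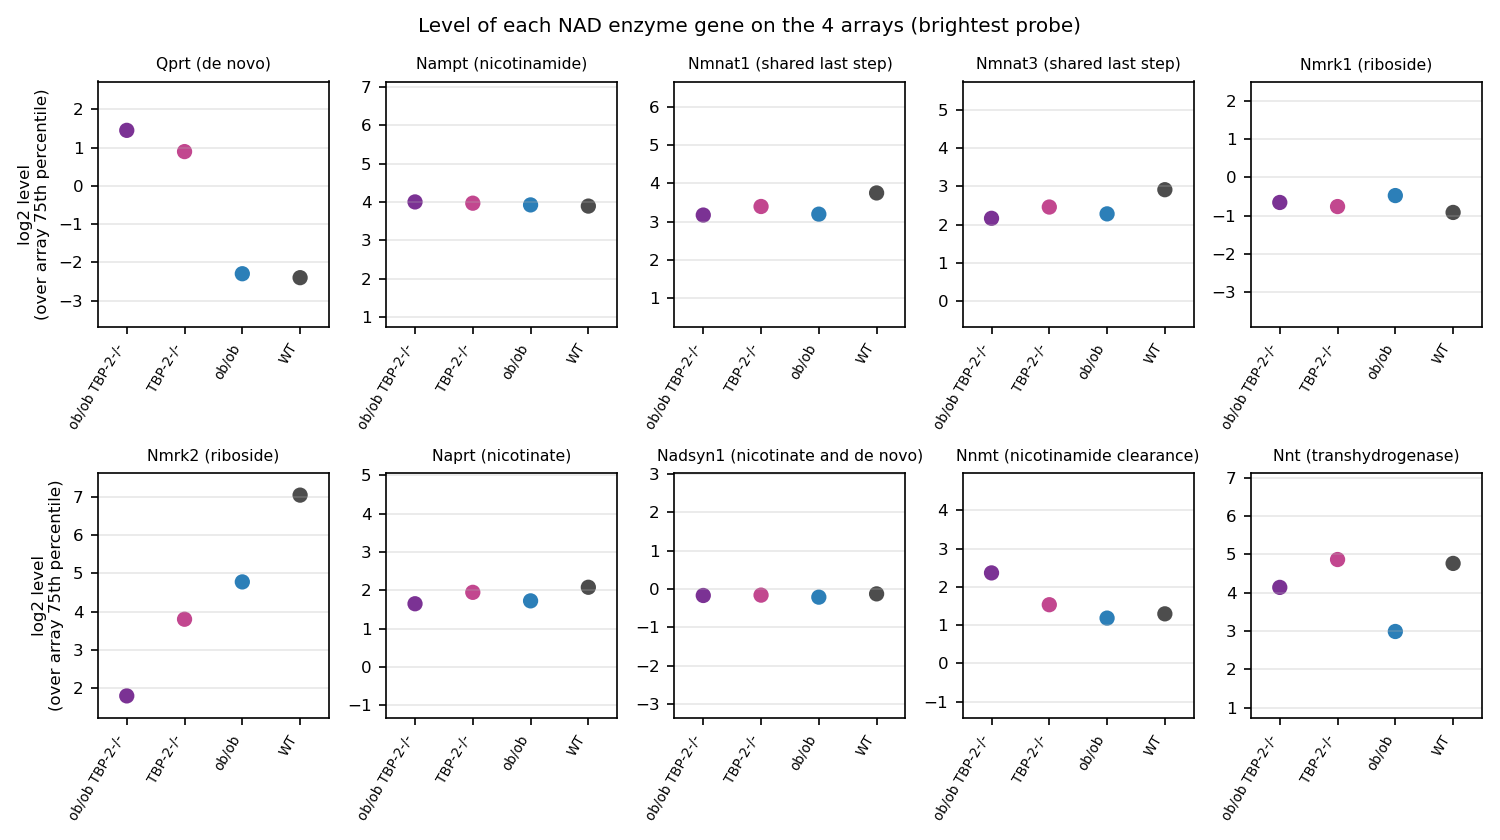
Log2 level of each gene on the 4 arrays (y axis, relative to the array's 75th percentile, with the same span of log2 units in every panel), brightest probe, 1 point for each array. Qprt is high on both arrays without TBP-2, Nmrk2 descends over the WT, ob/ob, TBP-2-/- and ob/ob TBP-2-/- arrays, Nnt is lowest on the ob/ob array, and Nampt and Nadsyn1 lie level.

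In the riboside route, Nmrk2, the muscle nicotinamide riboside kinase, had signals of 910.1 on the ob/ob TBP-2-/- array, 4279 on the TBP-2-/- array, 8472 in ob/ob muscle and 36969.6 in WT muscle. It was highest in WT muscle and lower with either mutation, and the double mutant was lowest; each step in this order exceeded 2 SE. It was 9.46-fold lower in TBP-2-/- than in WT muscle (log2 difference -3.24 ± 0.20) and 7.87-fold lower in ob/ob TBP-2-/- than in ob/ob muscle (-2.98 ± 0.20). The ob/ob genotype went with a lower level too, 4.81-fold against WT (-2.27 ± 0.20) and 4.01-fold in ob/ob TBP-2-/- against TBP-2-/- muscle (-2.002 ± 0.20). The Txnip differences on the ob/ob and lean backgrounds were apart by 0.26 ± 0.29, less than 2 SE, and with a single array for each genotype this says nothing of the spread between mice.

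The double mutant's Nmrk2 level was 37.9-fold below WT (log2 difference -5.24 ± 0.20), beside a sum of -5.51 for the single-mutant differences, which share the WT array. Nmrk2 rests on 1 probe, at chr10:80602417-80602476 on mm8, the build of the array annotation. The table of genes used here is of another build, so the part of the gene that holds a probe was not determined. Of the 8 spots nearest to it on the slide, 5 were measured on all arrays, and these deviated from their own means by between -0.29 and 0.43, against deviations between -2.56 and 2.69 for Nmrk2.

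Nmrk1, the riboside kinase found in most tissues, had signals of 165 on the ob/ob TBP-2-/- array, 180.2 on the TBP-2-/- array, 221 in ob/ob muscle and 148 in WT muscle. No neighbouring levels in its order were more than 2 SE apart. Its log2 differences were 0.15 ± 0.21 for TBP-2-/- minus WT, -0.18 ± 0.21 for the double mutant minus ob/ob, 0.44 ± 0.21 for ob/ob minus WT and 0.11 ± 0.21 for ob/ob TBP-2-/- minus TBP-2-/-. The riboside kinases therefore stood far apart: where Nmrk2 was lower by 9.46-fold and 7.87-fold without Txnip, Nmrk1 was within 1.13-fold of its level with Txnip on either background.

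In the de novo route, Qprt, which makes nicotinic acid mononucleotide from quinolinate, had signals of 714 on the ob/ob TBP-2-/- array and 570.3 on the TBP-2-/- array, against 62.9 in ob/ob muscle and 53.1 in WT muscle. Both arrays without Txnip were high and both arrays with it were low. Qprt was 9.80-fold higher in TBP-2-/- than in WT muscle (log2 difference 3.29 ± 0.21) and 13.4-fold higher in ob/ob TBP-2-/- than in ob/ob muscle (3.75 ± 0.21). The ob/ob genotype itself went with a difference of 0.10 ± 0.22 against WT and, without Txnip, with 0.55 ± 0.20 against TBP-2-/- muscle. The single Qprt probe lies at chr7:126899109-126899168 (mm8). With a background correction by the normexp method these differences were 5.16-fold and 7.28-fold.

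Of 11 genes of the kynurenine steps, 5 had no probe well above background on any array. Of these Tdo2, Kmo and Kynu lie on the way to quinolinate, and Acmsd and Aadat act on side branches. Ido1, which opens the route outside the liver, was well above background on the TBP-2-/- array alone (signal 15.4), and its relative Ido2 on the ob/ob TBP-2-/- array alone (10.6), both close to background. Haao, which makes the precursor of quinolinate, was dim, with signals of 16.5 on the ob/ob TBP-2-/- array, 17.9 on the TBP-2-/- array, 18.2 in ob/ob muscle and 21.6 in WT muscle. Of the 4 genes measured on all arrays, none was 2-fold or more higher in any comparison. Kyat3, a kynurenine aminotransferase that leads away from this route, was 3.90-fold lower in TBP-2-/- than in WT muscle and 4.35-fold lower in ob/ob TBP-2-/- than in ob/ob muscle, with signals of 171 on the ob/ob TBP-2-/- array and 197 on the TBP-2-/- array, against 877 in ob/ob and 703 in WT muscle.

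In the nicotinamide route, Nampt, the enzyme that returns nicotinamide to the mononucleotide, was level: its brightest probe gave 4185 on the ob/ob TBP-2-/- array, 4800.45 on the TBP-2-/- array, 4687 in ob/ob muscle and 4160.3 in WT muscle. All of its log2 differences lay between 0.03 and 0.08, each with an SE of 0.20. The dimmer Nampt probe gave 450.3, 416, 526 and 326 on the arrays in the same order. By that probe the level in ob/ob muscle was 1.47-fold above WT (0.55 ± 0.20), against 0.03 ± 0.20 for the brightest one, so the probes of Nampt disagree in this comparison.

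In the nicotinate route, Naprt, which attaches nicotinate to its ribose phosphate, had signals of 819 on the ob/ob TBP-2-/- array, 1181 on the TBP-2-/- array, 1019.9 in ob/ob muscle and 1183 in WT muscle. Its log2 differences with Txnip loss were -0.13 ± 0.20 in lean and -0.08 ± 0.20 in ob/ob muscle. Nadsyn1, the glutamine-dependent NAD synthetase, had 232, 274, 266 and 256 on the arrays in the same order, and its other probe had 202, 248, 250.4 and 242. The Nadsyn1 log2 differences lay between -0.10 and 0.04 over both probes and all 4 comparisons. Nadsyn1 acts after Qprt in the de novo route, and its brightest probe had log2 differences of -0.033 and 0.044, each with an SE of 0.20, where Qprt differed by 9.80-fold and 13.4-fold.

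The adenylyl transfer is shared by all routes. Nmnat1, the nuclear adenylyltransferase, had signals of 2354 on the ob/ob TBP-2-/- array, 3226 on the TBP-2-/- array, 2828 in ob/ob muscle and 3766 in WT muscle. Nmnat3, described as a mitochondrial form, had signals of 1169.7, 1684, 1499 and 2105 in the same order. Both were highest on the WT array. They were lower in ob/ob than in WT muscle by log2 differences of -0.55 ± 0.20 (Nmnat1) and -0.63 ± 0.20 (Nmnat3), but with spike-in scaling these became 0.09 and 0.01, so their direction depends on the scaling. With Txnip loss on the lean background the differences were -0.35 ± 0.20 and -0.45 ± 0.20, and on the ob/ob background -0.02 ± 0.20 and -0.12 ± 0.20. The other Nmnat1 probe gave -0.38 and 0.00 for these Txnip comparisons. Nmnat2, the form known from neurons, had no probe well above background on any array.

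**Figure D2:**
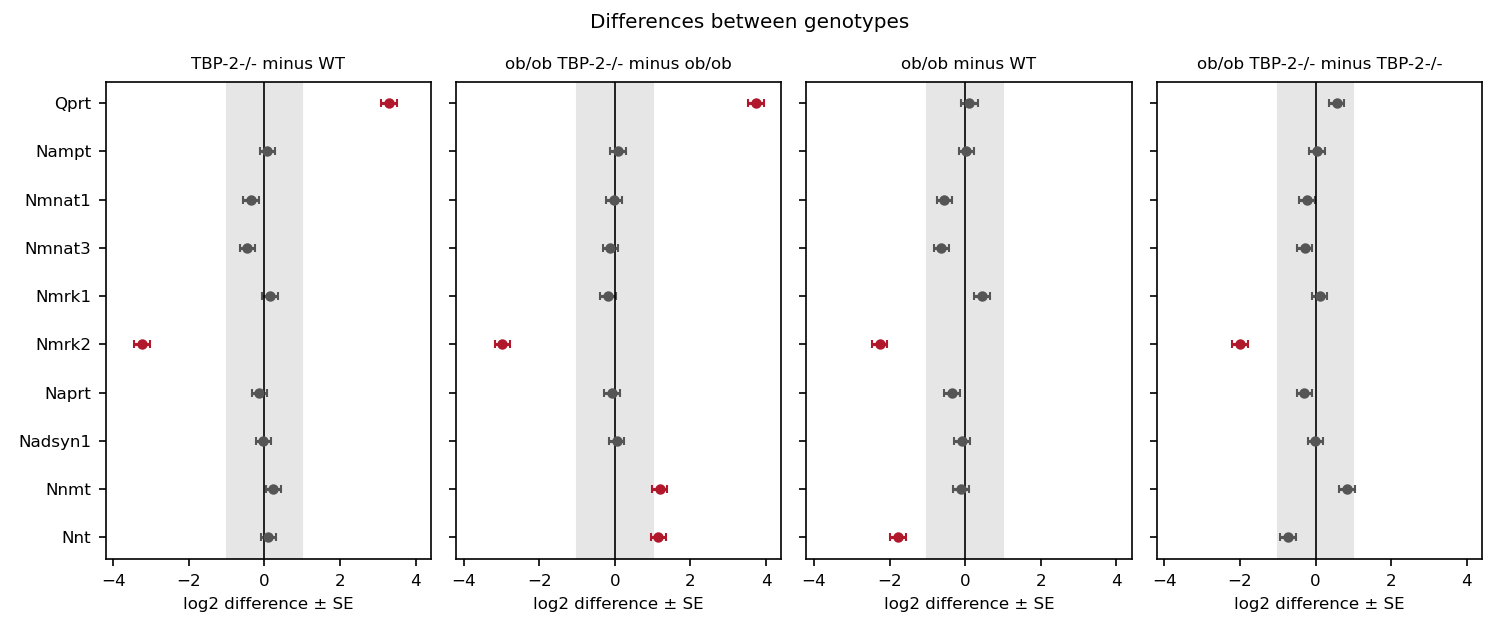
Log2 differences of the 10 genes (y axis) in the 4 comparisons named above the panels, with bars of 1 SE from the error model; the grey band spans differences under 2-fold, and red points lie outside it. Nmrk2 lies to the left in every panel, Qprt to the right in both Txnip comparisons, and Nnt to the left in ob/ob minus WT.

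Nnmt, the methyltransferase that removes nicotinamide as methylnicotinamide, was highest in the double mutant. Its signals were 1344 on the ob/ob TBP-2-/- array, 887 on the TBP-2-/- array, 701 in ob/ob muscle and 687 in WT muscle. It was 2.27-fold higher in ob/ob TBP-2-/- than in ob/ob muscle (1.18 ± 0.20) and 1.18-fold higher in TBP-2-/- than in WT muscle (0.24 ± 0.20). These differences with Txnip loss were 0.94 ± 0.29 apart. Adipocyte markers were higher on the same array. All 8 were above their level in ob/ob muscle, with a median log2 difference of 1.30 beside 0.04 for all genes. With this scaling 6 of the 8 were 2-fold or more higher, against 1.91% of all genes. With spike-in scaling 0 of them were, and Nnmt itself was then 1.59-fold higher. The mean log2 levels of these markers were 3.19 on the ob/ob TBP-2-/- array, 2.80 on the TBP-2-/- array, 2.01 in ob/ob muscle and 1.96 in WT muscle. In ob/ob against WT muscle they did not move as 1 set. There 5 of the 8 were above 0 and 3 below, from Cfd at 10.4-fold lower to Lep at 6.15-fold higher. Whether fat cells in the tissue take part in the Nnmt difference was not tested, and in a tissue sample fewer cells of a type and less RNA in each cell cannot be told apart.

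Nnt, the transhydrogenase of the inner mitochondrial membrane that makes NADPH from NADH, stood apart on the ob/ob array. Its brightest probe gave 4606 on the ob/ob TBP-2-/- array, 8950.5 on the TBP-2-/- array, 2450.03 in ob/ob muscle and 7619 in WT muscle. It was 3.43-fold lower in ob/ob than in WT muscle (-1.78 ± 0.20) and 1.66-fold lower in ob/ob TBP-2-/- than in TBP-2-/- muscle (-0.73 ± 0.20). With Txnip loss it was 2.22-fold higher in ob/ob mice (1.15 ± 0.20) and 1.07-fold higher in lean ones (0.10 ± 0.20), a gap of 1.05 ± 0.29 between backgrounds. An internal deletion in Nnt is known from the C57BL/6J strain, and the labels name no strain for these mice.

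The Nnt result does not rest on 1 probe. The other probes above background on all arrays gave 3.47-fold and 2.74-fold lower levels in ob/ob than in WT muscle, and 2.08-fold and 1.86-fold higher levels in ob/ob TBP-2-/- than in ob/ob muscle. These probes lie within a span of 639 bases on chromosome 13 (mm8). A further Nnt probe, 57.6 kilobases away, was well above background on the ob/ob array alone, with a signal of 19.4. Slow fibre markers, whose fibres are rich in mitochondria, were lower in ob/ob than in WT muscle as well (7 of 7 below 0, median -0.71). Spike-in scaling shifts this comparison by 0.65, close to the size of that median, so the slow fibre difference depends on the scaling. With it, 0 of the 7 were 2-fold or more lower, and Nnt was 2.19-fold lower. In ob/ob TBP-2-/- against ob/ob muscle, 6 of these 7 were below 0 (median -0.51), where Nnt was higher. In ob/ob TBP-2-/- against TBP-2-/- muscle all 7 were below 0, 6 of them by 2-fold or more (median -1.36), beside -0.73 for Nnt and -2.002 for Nmrk2. In TBP-2-/- against WT muscle 4 of 7 were below 0 (median -0.05), beside 0.10 for Nnt and -3.24 for Nmrk2. That median is smaller in size than the spike-in shift of 0.25 there. The part of slow fibres in the Nnt and Nmrk2 differences was not tested.

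**Figure D3:**
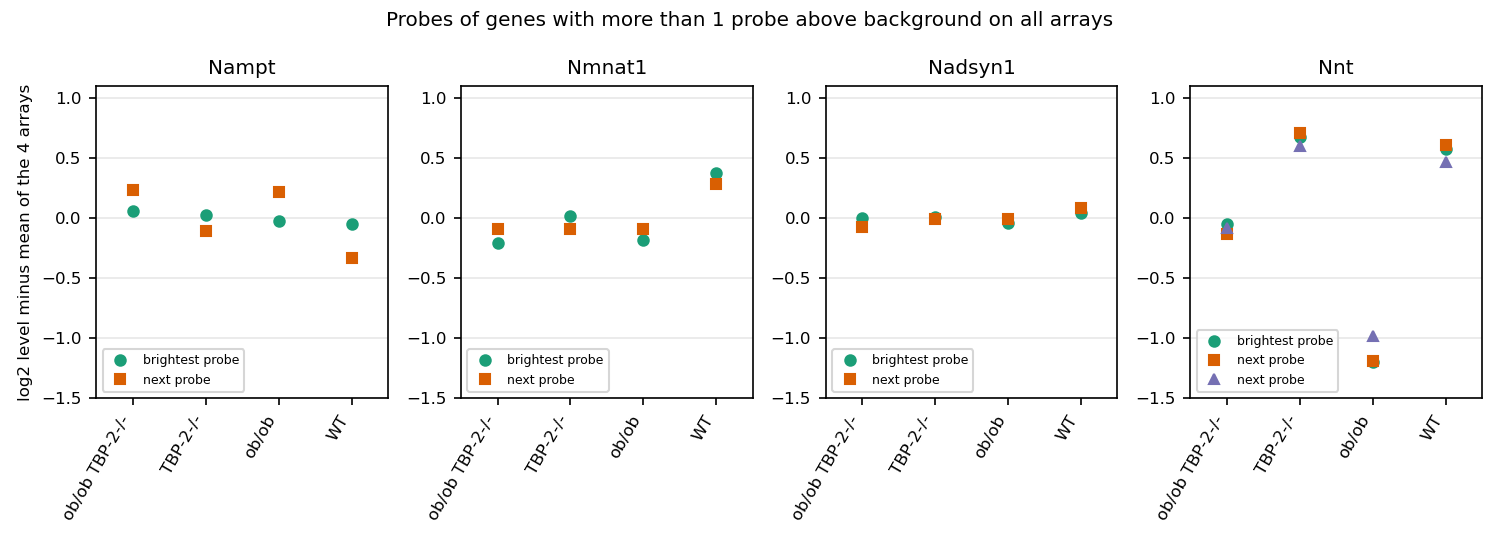
Log2 level minus the mean of the 4 arrays (y axis) for each probe above background on all arrays, for the 4 genes with more than 1 such probe. The 3 Nnt probes move together and are lowest on the ob/ob array, the Nadsyn1 and Nmnat1 probes lie close to each other, and the Nampt probes part on the ob/ob and WT arrays.

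Read against all genes, a difference of 2-fold was rare in these comparisons. In TBP-2-/- minus WT, 1 of the 10 genes (Qprt) was 2-fold or more higher and 1 (Nmrk2) lower, against 1.73% and 0.88% of 15220 genes. Qprt ranked 8 from the highest and Nmrk2 ranked 3 from the lowest. In ob/ob TBP-2-/- minus ob/ob, 3 of the genes (Qprt, Nnmt and Nnt) were higher and 1 (Nmrk2) lower, against 1.91% and 0.809% of 15459 genes. Qprt ranked 3 from the highest and Nmrk2 ranked 4 from the lowest. In ob/ob minus WT, 0 were higher and 2 (Nmrk2 and Nnt) lower, against 1.88% and 1.74% of 15086 genes. In ob/ob TBP-2-/- minus TBP-2-/-, 0 were higher and 1 (Nmrk2) lower, against 1.79% and 1.57% of 15616 genes. The list was put together around the largest of these differences, so nothing is read from the counts. The median over the 10 genes was 0.02, 0.01, -0.23 and -0.12 in these comparisons, beside -0.07, 0.04, -0.05 and 0.04 over all genes.

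Spike-in scaling shifted all genes by a median log2 value of 0.25 in TBP-2-/- minus WT, -0.51 for the double mutant minus ob/ob, 0.65 for ob/ob minus WT and -0.11 for the double mutant minus TBP-2-/-. The shares of all genes higher and lower by 2-fold then became 3.31% and 0.558%, 0.537% and 5.28%, 13.9% and 0.471%, and 1.40% and 2.16% in these comparisons. Relative to those shifts the differences of the 10 genes stay as given above. Taken as they stand, Nnmt and Nnt were then 1.59-fold and 1.56-fold higher in ob/ob TBP-2-/- than in ob/ob muscle, under 2-fold, and Nmrk1 exceeded its WT level by 2.12-fold in ob/ob muscle.

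Counts for 1 direction of 1 comparison in the pathway lists that follow are to be read against 0.809% to 1.91% of all genes. Lists of this size hold few or none at such shares. For counts over any of the 4 comparisons the share is larger. Over the 14906 genes well above background on all arrays, the 90th percentile of the log2 span across arrays was 0.99. Nothing is read from these counts. Of 19 NAD users (sirtuins, ADP-ribosyltransferases and NAD glycohydrolases), 17 were measured in each comparison and 0 were 2-fold or more different in any of the 4. With spike-in scaling 2 of them, Sirt5 and Parp3, were 2.02-fold and 2.01-fold lower in ob/ob TBP-2-/- than in ob/ob muscle. Their median log2 differences lay between -0.12 and -0.07. Sirt5, a mitochondrial deacylase, was among the farther ones, at -0.51 in ob/ob TBP-2-/- minus ob/ob and -0.62 in ob/ob TBP-2-/- minus TBP-2-/-. Cd38, an NAD-degrading ectoenzyme, lay between 0.24 and 0.34 in the 4 comparisons.

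Of 14 genes that handle ribosides and nucleotides around NAD, 13 were measured. A single one passed 2-fold, in ob/ob TBP-2-/- minus ob/ob, where 1.91% of all genes were 2-fold or more higher. Slc12a8, reported as a carrier of nicotinamide mononucleotide, was 2.32-fold higher in ob/ob TBP-2-/- than in ob/ob muscle (1.21 ± 0.35), at dim signals of 32.3 and 16.5. With spike-in scaling it was 1.63-fold higher, under 2-fold, and Enpp1, a nucleotide pyrophosphatase, then exceeded its WT level by 2.45-fold in ob/ob muscle. Pnp, the purine nucleoside phosphorylase that also splits nicotinamide riboside, had log2 differences of 0.66 with Txnip loss in lean and 0.51 in ob/ob muscle, which became 0.91 and 0.00 with spike-in scaling. Among genes of clearance, Gnmt, which spends the same methyl donor as Nnmt, was 2.86-fold lower in TBP-2-/- than in WT muscle (-1.52 ± 0.21) and 2.10-fold lower in ob/ob TBP-2-/- than in ob/ob muscle (-1.07 ± 0.21).

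Among 15 genes of NADP and mitochondrial NAD, 3 passed 2-fold in some comparison, a wider count than the share in 1 direction of 1 comparison. These were Nnt, which is one of the 10 enzymes, Idh2 and Pgd. Idh2, the mitochondrial isocitrate dehydrogenase that yields NADPH, had signals of 2488 on the ob/ob TBP-2-/- array, 5933 on the TBP-2-/- array, 6957 in ob/ob muscle and 5191 in WT muscle. It was 2.03-fold lower in ob/ob TBP-2-/- than in TBP-2-/- muscle (-1.02 ± 0.20), where Nnt, another mitochondrial NADPH source, was 1.66-fold lower. Idh2 was 2.37-fold lower in ob/ob TBP-2-/- than in ob/ob muscle (-1.24 ± 0.20), where Nnt was 2.22-fold higher. Pgd, of the pentose phosphate pathway in the cytosol, was 2.29-fold higher in that comparison (1.19 ± 0.20) and 1.64-fold higher in TBP-2-/- than in WT muscle (0.72 ± 0.20). With spike-in scaling Pgd was 1.61-fold higher in ob/ob TBP-2-/- than in ob/ob muscle, under 2-fold, while Idh2 was 3.37-fold lower. G6pdx, which opens that pathway, was 1.93-fold and 1.30-fold higher in the same comparisons. The NAD kinases Nadk and Nadk2 and the mitochondrial NAD carrier Slc25a51 stayed under 2-fold in all 4.

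**Figure D4:**
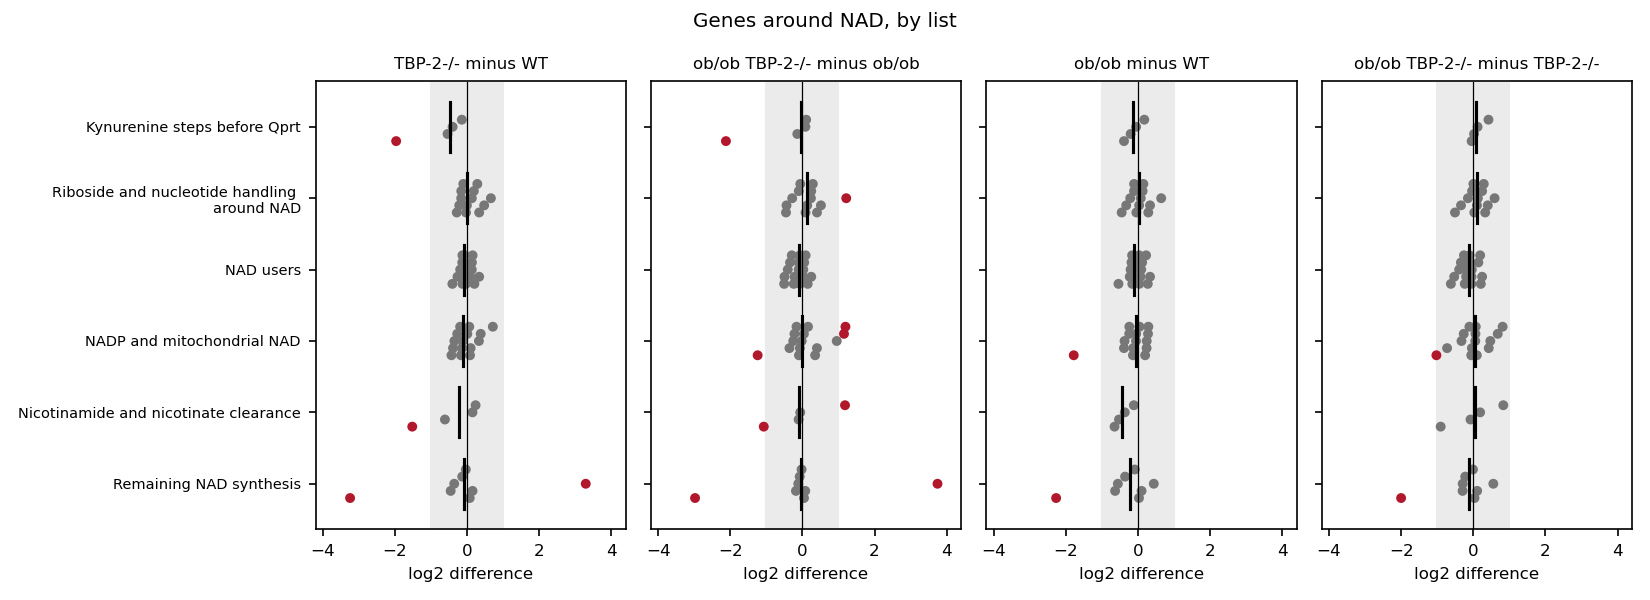
Log2 differences of the measured genes of each list (1 point for each gene, x axis) in the 4 comparisons; black bars are list medians, the grey band spans differences under 2-fold, and red points lie outside it. The far points are Nmrk2 to the left, Qprt to the right, Kyat3 to the left in both Txnip comparisons, and Nnt to the left in ob/ob minus WT, and with this scaling the NAD users lie within the band throughout.

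The patterns most like those of Nmrk2 and Qprt were found as the smallest root mean square distance between log2 levels centred on each gene's mean over the 4 arrays, among 12955 other named genes measured on all arrays. With 4 arrays this is a description and not evidence of a link. For Qprt the nearest were Aacs, the cytosolic acetoacetyl-CoA synthetase (distance 0.31), Smoc1 (0.46), Gys2, the liver form of glycogen synthase (0.57), 2310022B05Rik (0.72), Ifi30 (0.81) and Kcnf1 (0.84), against a median distance of 1.79 over all genes. Most genes differed little over the arrays (median span 1.35-fold). This median, and that for Nmrk2 below, therefore mainly reflects the size of the gene's own differences. Aacs had signals of 4921 on the ob/ob TBP-2-/- array and 3684 on the TBP-2-/- array, against 577 in ob/ob muscle and 579 in WT muscle. Like Qprt it was high on both arrays without Txnip and level between the arrays with it.

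No gene came as close to Nmrk2 as Aacs did to Qprt. The nearest was Oxct1, the mitochondrial enzyme that activates ketone bodies (distance 0.95), then Crip3 (0.96), Fos (0.98), Chst8 (1.097), Fthl17a (1.11) and Ppara, the nuclear receptor of fat oxidation (1.13), against a median of 1.88. Fthl17a was dim, at 12.7 on the ob/ob TBP-2-/- array, 12.9 on the TBP-2-/- array and 14.5 in ob/ob, against 149.5 in WT muscle. Oxct1 had signals of 7735 on the ob/ob TBP-2-/- array, 15867 on the TBP-2-/- array, 39611 in ob/ob muscle and 50872 in WT muscle, which is the order of Nmrk2 over a narrower range. Ppara was 4.79-fold lower in ob/ob TBP-2-/- than in ob/ob muscle and stood 1.003-fold apart between ob/ob and WT muscle, where Nmrk2 was 4.81-fold lower.

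**Figure D5:**
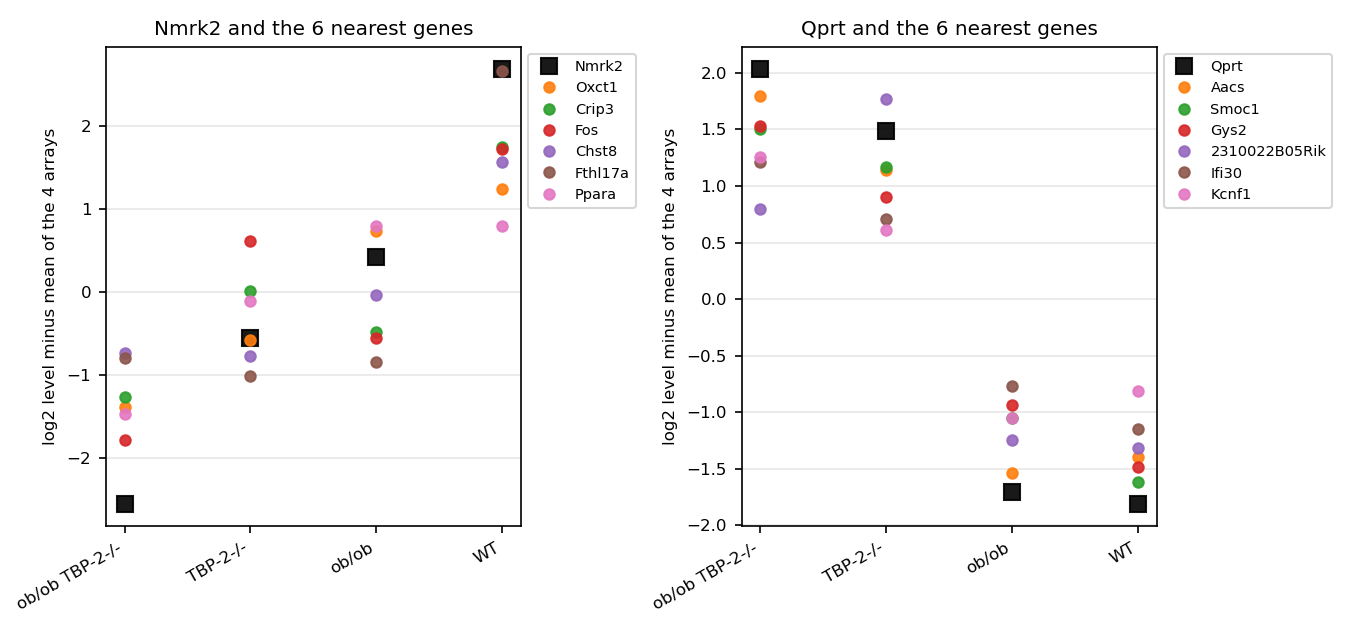
Log2 level minus the mean of the 4 arrays (y axis) for Nmrk2, Qprt (black squares) and the 6 genes nearest to each. The points of Qprt's neighbours split into 2 arrays without TBP-2 and 2 with it, and those of Nmrk2's neighbours scatter around its steps.

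Markers of other cell types moved between arrays beside Qprt. Adipocyte markers were higher with Txnip loss, with medians of 0.76 on the lean and 1.30 on the ob/ob background, and macrophage markers with 0.54 and 0.36, all 8 and all 7 above 0 in both. Of these adipocyte and macrophage markers Lep differed most, by 2.76-fold and 2.74-fold, against 9.80-fold and 13.4-fold for Qprt. All 9 fibroblast and tendon markers were above 0 in both as well. Comp, Fmod and Tnmd were 32.1-fold, 24.1-fold and 12.7-fold higher in TBP-2-/- than in WT muscle. In ob/ob TBP-2-/- against ob/ob muscle they were 1.49-fold, 1.30-fold and 1.74-fold higher. All 6 Schwann cell markers were above 0 too, with Mbp 3.40-fold and 1.83-fold higher. Spike-in scaling shifts ob/ob TBP-2-/- minus ob/ob by -0.51. The medians there of macrophage markers (0.36) and of fibroblast and tendon markers (0.43) are smaller than that shift, so their direction depends on the scaling. With it, 0 of the adipocyte, macrophage, fibroblast and tendon, and Schwann cell markers were 2-fold or more higher in that comparison. Mean log2 levels of macrophage markers were 1.13 on the ob/ob TBP-2-/- array, 1.44 on the TBP-2-/- array, 0.72 in ob/ob muscle and 0.80 in WT muscle. Qprt is known to be high in liver, and of 5 hepatocyte markers on the array Apoa1 and Ttr were below background on every array. Alb and Apob were above background on the ob/ob TBP-2-/- array alone, with signals of 27.9 and 36.5. Tat was above background on every array. Its signals were 78.1 on the ob/ob TBP-2-/- array, 78.2 on the TBP-2-/- array, 74.1 in ob/ob and 77.2 in WT muscle. Muscle-defining genes, which bear on Nmrk2, were lower by a median of -0.20 in TBP-2-/- than in WT muscle and higher by 0.15 in ob/ob TBP-2-/- than in ob/ob muscle, beside -3.24 and -2.98 for Nmrk2. Both muscle medians are smaller in size than the spike-in shifts of 0.25 and -0.51 in these comparisons, so their direction depends on the scaling. Fibroblast and tendon markers (9 of 9 above background on every array) had mean log2 levels of 4.62 on the ob/ob TBP-2-/- array, 4.07 on the TBP-2-/- array, 4.07 in ob/ob muscle and 2.17 in WT muscle. Schwann cell markers (6 of 6) had mean levels of -0.09, -0.27, -0.74 and -1.27 in the same order. The fibroblast and tendon markers did not move as 1 set. In ob/ob against WT muscle 6 of the 9 were above 0, with Comp, Fmod and Tnmd 42.5-fold, 30.1-fold and 21.1-fold higher. The other 3, Col3a1, Dcn and Lum, had log2 differences of -0.13, -0.25 and -0.47. Each of these is smaller in size than the spike-in shift of 0.65 in this comparison. The part of these cell types in the Qprt and Nmrk2 differences was not tested.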

How the data were processed

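The authors scanned 1-colour arrays and, per the file headers, extracted an intensity for each spot with Agilent Feature Extraction 9.5.3.1, which subtracted background and a spatial trend and did no scaling across arrays. A deposited log2 table of the same arrays was found, by comparison with the scanner values, to be centred on each probe's median and to run in the direction of its labels. Its column medians were 0.01 for ob/ob TBP-2-/-, -0.06 for TBP-2-/-, -0.01 for ob/ob and 0.09 for WT.

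Here log2 of the processed signal was taken and, for each array, the 75th percentile of 41174 non-control probes was subtracted; outlier spots were dropped and spots of 1 probe averaged. Probes were named through RefSeq accessions, symbols and synonyms of GRCm38.p6, and a gene was given by its brightest probe. A difference was taken where a gene passed background in both genotypes, and 2-fold was the size counted as different. With 1 array for each genotype no test was run. The members and the lists were chosen with earlier results of these data known. The genes named are the 10 members, Txnip, pathway-list genes past 2-fold, and 6 nearest patterns for Nmrk2 and for Qprt. Lep was a check of genotype. Single markers named for their differences, such as Comp, Fmod, Tnmd, Mbp and Cfd, were chosen after their values were seen. Other markers past 2-fold are not named. Genes of the fixed pathway and marker lists named for another reason (not detected, a list's example, or a value under 2-fold) were chosen after their values were seen, among them Haao, Ido1, Ido2, Sirt5, Parp3, Cd38, Pnp, Enpp1, G6pdx, Nadk, Nadk2 and Slc25a51. Differences and quantile scaling were tested on simulated data. Alternatives were quantile, spike-in and median scaling, normexp background correction with offset 50 (limma 3.58.1, R 4.3.3), the median of a gene's probes, the deposited log2 table and no filter on dim probes.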

Additional observations from a re-analysis of the deposited data

Results flagged for a closer look

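Differences of opposite sign on the 2 backgrounds occurred in 3 genes, and the difference between backgrounds was not tested. Nmrk1 had log2 differences of 0.15 in TBP-2-/- minus WT and -0.18 in ob/ob TBP-2-/- minus ob/ob, and Nadsyn1 of -0.033 and 0.044, all smaller than their SE. Nnmt had 0.83 in ob/ob TBP-2-/- minus TBP-2-/- and -0.11 in ob/ob minus WT, the first of them larger than its SE of 0.20. With spike-in scaling these Nnmt differences were 0.72 and 0.53, so their opposite sign depends on the scaling.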

How the results depend on the processing

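The 7 alternatives were set against 40 differences, 10 genes in 4 comparisons. Quantile and median scaling, the deposited table and the absence of a filter changed no sign and moved no gene across 2-fold. Normexp changed 2 signs and the median of probes 1, all of differences under 0.11. Spike-in scaling changed 11 signs, all of differences up to 0.63, and moved 3 differences across 2-fold. It gave 1 gene 2-fold higher in ob/ob TBP-2-/- minus ob/ob (Qprt, in place of 3) and 1 in ob/ob minus WT (Nmrk1, in place of 0). Among the pathway lists it took Slc12a8 and Pgd under 2-fold in ob/ob TBP-2-/- minus ob/ob, and Sirt5, Parp3, Enpp1 and Aox1 past it in 1 comparison each. Nmrk2 was -2.99 in TBP-2-/- minus WT, -3.49 in ob/ob TBP-2-/- minus ob/ob and -1.62 in ob/ob minus WT with spike-in scaling, and -3.03 in TBP-2-/- minus WT and -2.01 in ob/ob minus WT with quantile scaling. Qprt was 3.54 and 3.24 in the Txnip comparisons with spike-in scaling, and 2.37 and 2.86 with normexp. No paired analysis was possible because each genotype has 1 array. Which scaling is nearer to the RNA content of the muscle was not tested. The number of arrays limits all values, and dim probes (Qprt with Txnip, Slc12a8, Haao) are the least precise.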
